A study of Mus musculus with 8 samples.

Results

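The 28 mouse genes that encode subunits of RNA polymerases I, II and III were followed in Treg, regulatory T cells marked by Foxp3, which hold other immune cells in check. Members were the protein-coding genes with a symbol of the form Polr1, Polr2 or Polr3 plus letters, which excludes the mitochondrial polymerase gene Polrmt. All 28 were among the 19826 genes of the deposited table, 5 under Polr1, 13 under Polr2 and 10 under Polr3, and all 28 passed the filter on low values. KO cells came from C57BL/6 mice of genotype Foxp3 YFP-Cre/+ Pdpk1 FL/FL, in which loxP sites flank part of both Pdpk1 copies. WT cells came from C57BL/6 mice of genotype Foxp3 YFP-Cre/+ Pdpk1 +/+. Pdpk1 encodes PDK1, the kinase that activates AKT and related kinases below PI3K. All mice carried Cre and YFP in 1 of their Foxp3 alleles, so Cre is made only where that allele is active. CD4+ YFP+ cells were sorted from spleen and peripheral lymph nodes of untreated animals, and polyadenylated RNA was sequenced in 4 KO and 4 WT libraries. The labels give no age and do not say whether a library is 1 mouse, so the p-values rest on variation among libraries, which may be technical. In the whole-library RNA of sorted cells, fewer cells of a type and less RNA per cell cannot be told apart.

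RNA polymerase I transcribes the long precursor of ribosomal RNA, RNA polymerase II transcribes messenger RNA, and RNA polymerase III transcribes tRNAs and other short RNAs. Each is built around its own pair of largest subunits, which form the active site, and several smaller subunits are common to all of them or to polymerases I and III. In T cells the output of polymerases I and III is known to climb when cells are activated and grow, with AKT, mTOR and Myc among the regulators.

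Depth lay between 17448095 and 26299577 recovered reads per library. Pdpk1, summed over all its exons, had 2505.5, 1900.1, 1871.5 and 1656.4 normalized counts in KO libraries 1 to 4, against 2599.6, 2374.4, 1995.0 and 1923.3 in WT libraries 1 to 4. The groups overlapped (log2 change -0.17, limma adjusted p = 0.491), and because a whole-gene sum includes exons outside any deleted part, it does not check the labels. Levels below are normalized counts, the unit of the deposited table, unless given per kilobase. Foxp3 was at 4707.5 to 6340.5 in KO libraries and 4418.0 to 6097.6 in WT libraries. Of the 9 Treg markers, 1 (Il2ra) was higher and 1 (Ikzf2) lower, where 4.41% of all genes tested were higher and 5.06% lower. Their median log2 change was -0.27, and only Foxp3 and Il2ra had positive values. Every KO library was below every WT library for Ikzf2, Cd4 and Cd3g, as for 8.24% of all genes tested. Cd3g and Cd3e were just above an adjusted p of 0.05 (log2 changes -0.44 and -0.39, limma adjusted p = 0.0512 and 0.0545). Myc, whose product is a regulator of all of these polymerases, was at 7837.6 to 9818.9 in KO libraries and 3548.9 to 3909.7 in WT libraries (log2 change 1.23 ± 0.09 SE, limma adjusted p = 1.27e-06). Macrophage markers were uneven across libraries. Of 19 listed, 18 had a higher mean in KO libraries. The summed level of all 19 was 2041.8 to 6013.7 normalized counts in KO libraries and 1462.9 to 2744.4 in WT libraries. These sums include Axl, which ran the other way, at 404.1 to 795.5 in KO libraries and 940.9 to 1296.4 in WT libraries. They therefore understate how far the other markers differed between the groups. Of the 17 tested, 8 were higher and 1, Axl, was lower. Mertk, Cd14, Fcgr1, Vsig4, Cd163, Marco and Spic were at 0 in at least 1 library. The mean log2 level of the 17 tested markers was 5.73, 7.79, 7.47 and 5.89 in KO libraries 1 to 4. In WT libraries 1 to 4 it was 3.41, 6.44, 4.39 and 4.86. This mean went partly with genotype, so a fit with it as a covariate cannot fully separate marker level from genotype. For the genes described in most detail, values are also given with the mean marker level as a covariate or without the 3 libraries highest in it (KO libraries 2 and 3 and WT library 2). Other genes were fitted in the same ways, and their values are not all printed.

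The subunit genes were compared between KO and WT libraries, and whether their share of calls differed from that of all genes was not tested. Only Polr1b passed the threshold in limma (adjusted p under 0.05 over the 13847 genes tested), and it was higher in KO libraries. That is 1 of 28 genes, or 3.57%, where 9.47% of all genes tested passed, 4.41% in the higher and 5.06% in the lower direction. DESeq2 called 2 of the 28 higher (Polr1b and Polr3b) and 6.14% of all genes. With the mean macrophage marker level as a covariate, 0 of the 28 and 1.6% of all genes were higher. The median log2 change (KO minus WT, of log2(normalized count + 1)) over the 28 genes was 0.03, beside -0.01 over all genes tested. It was 0.02 for the 5 Polr1 genes, 0.04 for the 13 Polr2 genes and 0.01 for the 10 Polr3 genes. A change of 0.25 or more in either direction was fitted for 7 of the 28 genes, against 47.2% of all genes tested. All 7 had positive values, and they included Polr1a, Polr1b, Polr2h, Polr3b, Polr3d and Polr3e. The median SE was 0.12 over the 28 genes and 0.18 over all genes tested, so these shares come from sets of unlike precision. At an unadjusted p under 0.05 there were also 7 members, with Polr2j in place of Polr2h, where 23.0% of all genes tested reached that level. All 4 KO values lay above all 4 WT values for 2 members, Polr2j among them, and for no member did they lie below. That is 7.14% of the members, while groups did not overlap for 15.3% of all genes tested, 7.06% with KO above and 8.24% with KO below WT.

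**Figure D1:**
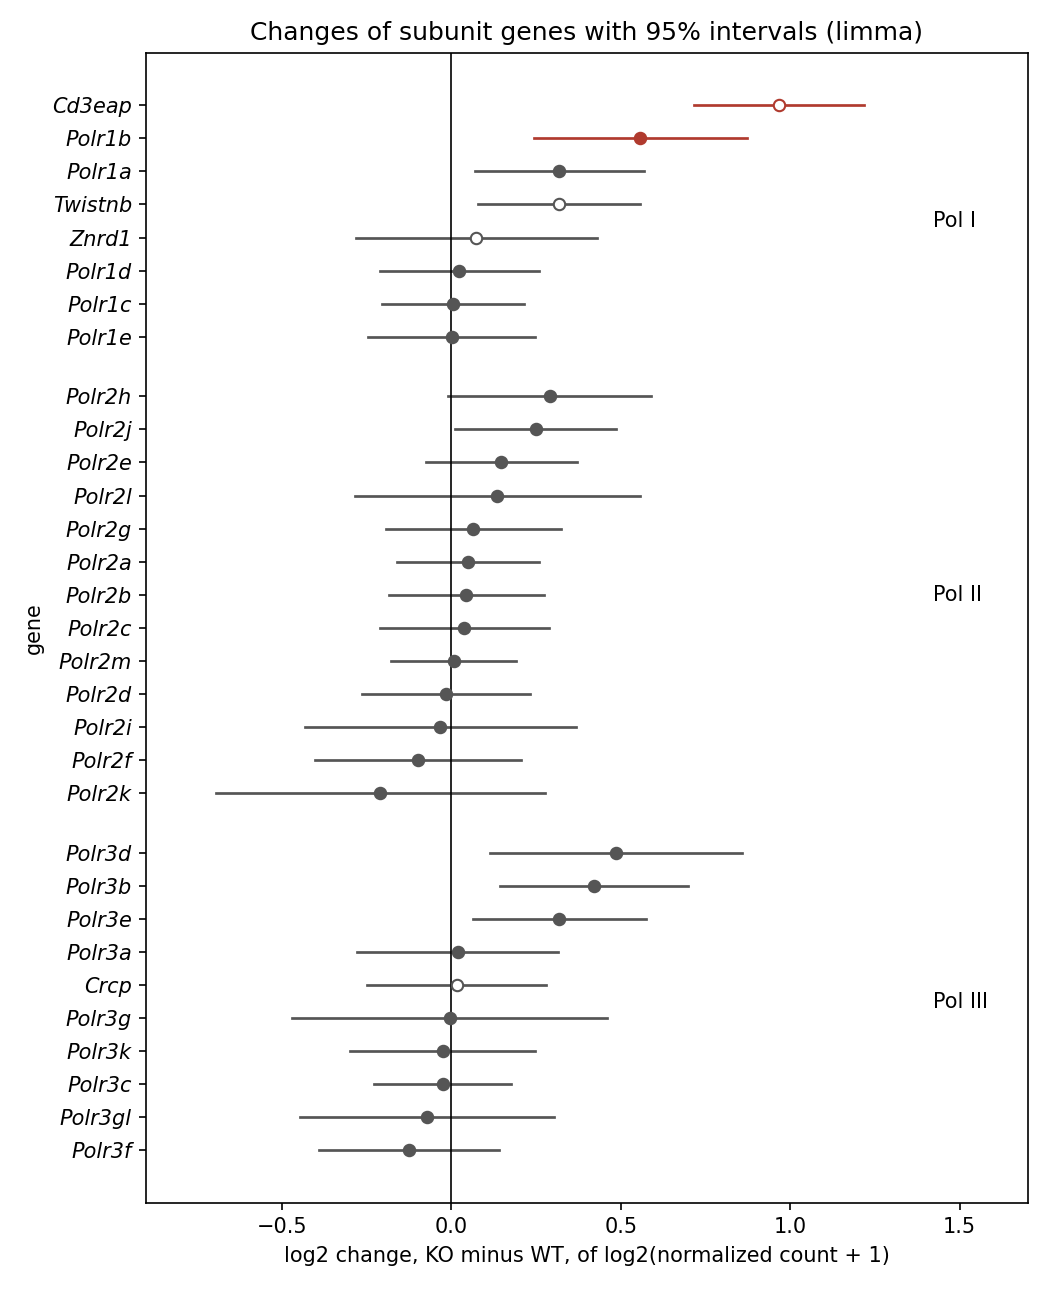
Log2 change (KO minus WT, x axis) of each subunit gene with its 95% interval from limma, grouped by polymerase and ordered by value. Filled points are 27 of the 28 genes chosen by symbol, open points are Cd3eap, Twistnb, Znrd1 and Crcp, whose products are also subunits, and red marks an adjusted p under 0.05, reached by Polr1b at 0.56 and Cd3eap at 0.97.

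Polymerase I gave the member that passed. Polr1b encodes RPA135, the second largest subunit, which with RPA190 forms the active site (ENSMUSG00000027395, chromosome 2, 129100995 to 129126594, plus strand). It had 1788.6, 1596.6, 1114.8 and 1364.6 normalized counts in KO libraries 1 to 4, against 892.8, 1225.8, 932.6 and 907.2 in WT libraries 1 to 4. KO libraries 1, 2 and 4 lay above every WT library, KO library 3 lay below WT library 2, and WT library 2 stood apart from the other WT libraries. The log2 change of 0.56 ± 0.15 (SE, limma adjusted p = 0.0258) had a 95% interval of 0.24 to 0.87, and edgeR on the recovered reads gave 0.57 (adjusted p = 0.0264). The call was close to the threshold. It was lost without KO library 1, KO library 2, WT library 1, WT library 3 or WT library 4 (limma adjusted p = 0.0631, 0.0741, 0.0586, 0.0674 and 0.0802), with log2 changes between 0.45 and 0.68 over the 8 omissions. With the mean macrophage marker level as a covariate the log2 change was 0.47 (adjusted p = 0.273). Without the 3 libraries highest in those markers it was 0.78 (adjusted p = 0.0206).

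Polr1a encodes RPA190, the largest subunit (ENSMUSG00000049553, chromosome 6, 71909053 to 71984935, plus strand). Its levels were 2363.9, 1851.9, 1806.4 and 1851.9 normalized counts in KO libraries 1 to 4, against 1820.6, 1665.6, 1432.5 and 1393.8 in WT libraries 1 to 4. KO library 1 was the highest of all and WT library 1 overlapped the KO range. The log2 change of 0.32 ± 0.12 (SE, limma adjusted p = 0.109) was not past the threshold, with a 95% interval of 0.07 to 0.57, and with the macrophage covariate it was 0.43 (adjusted p = 0.175). Polr1e encodes the subunit PAF53, which pairs with the product of Cd3eap, and its levels almost coincided, at 600.8 ± 40.6 in KO libraries and 599.7 ± 12.9 in WT libraries (SD, n = 4 each). Its log2 change was 0.00 (95% interval of -0.25 to 0.25, adjusted p = 0.999). Polr1c and Polr1d encode a pair of subunits that polymerases I and III have in common and that nucleate assembly. Polr1c was at 1281.0 to 1391.0 in KO libraries and 1175.8 to 1432.4 in WT libraries, and Polr1d at 2110.7 to 2660.9 in KO libraries and 2057.3 to 2826.3 in WT libraries. Their log2 changes were 0.01 (95% interval of -0.20 to 0.21) and 0.02 (95% interval of -0.21 to 0.26), with adjusted p = 0.983 and 0.928.

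Another 3 polymerase I subunits go by older symbols in the annotation used and so fall outside the symbol rule. Cd3eap, named Polr1g in newer nomenclature, encodes PAF49, the partner of PAF53 (ENSMUSG00000047649, chromosome 7, 19356014 to 19359483, minus strand). It had 883.6, 1073.9, 938.6 and 986.5 normalized counts in KO libraries 1 to 4, against 441.9, 496.1, 507.2 and 538.4 in WT libraries 1 to 4. Every KO library was above every WT library with no value between 538.4 and 883.6. The log2 change of 0.97 ± 0.12 (SE, limma adjusted p = 8.71e-05) exceeded the spread between libraries, and it passed the threshold under all 19 alternative settings, with adjusted p between 2.78e-12 and 0.0138. With the macrophage covariate it was at 0.86 (adjusted p = 0.00681). Cd3eap shares 106 exon bases with Ercc1 on the other strand, so without a stated strand setting reads there cannot be assigned. Ercc1 was at 333.1 to 395.2 in KO libraries and 310.6 to 444.7 in WT libraries, a log2 change of -0.01 (adjusted p = 0.983). Twistnb encodes the stalk subunit RPA43 and was at 1334.9 to 1515.5 in KO libraries and 1032.6 to 1382.1 in WT libraries (log2 change 0.32 ± 0.11 SE, limma adjusted p = 0.0932). It was at 0.15 with the macrophage covariate (adjusted p = 0.684), and past the threshold without WT library 2 (0.41, adjusted p = 0.0333). Znrd1 encodes RPA12, which takes part in RNA cleavage, and its log2 change was 0.07 (adjusted p = 0.849), WT library 1 being lowest at 409.2 normalized counts. Whether Polr1b and Cd3eap moved more than Polr1c, Polr1d, Polr1e and Znrd1 was not tested.

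**Figure D2:**
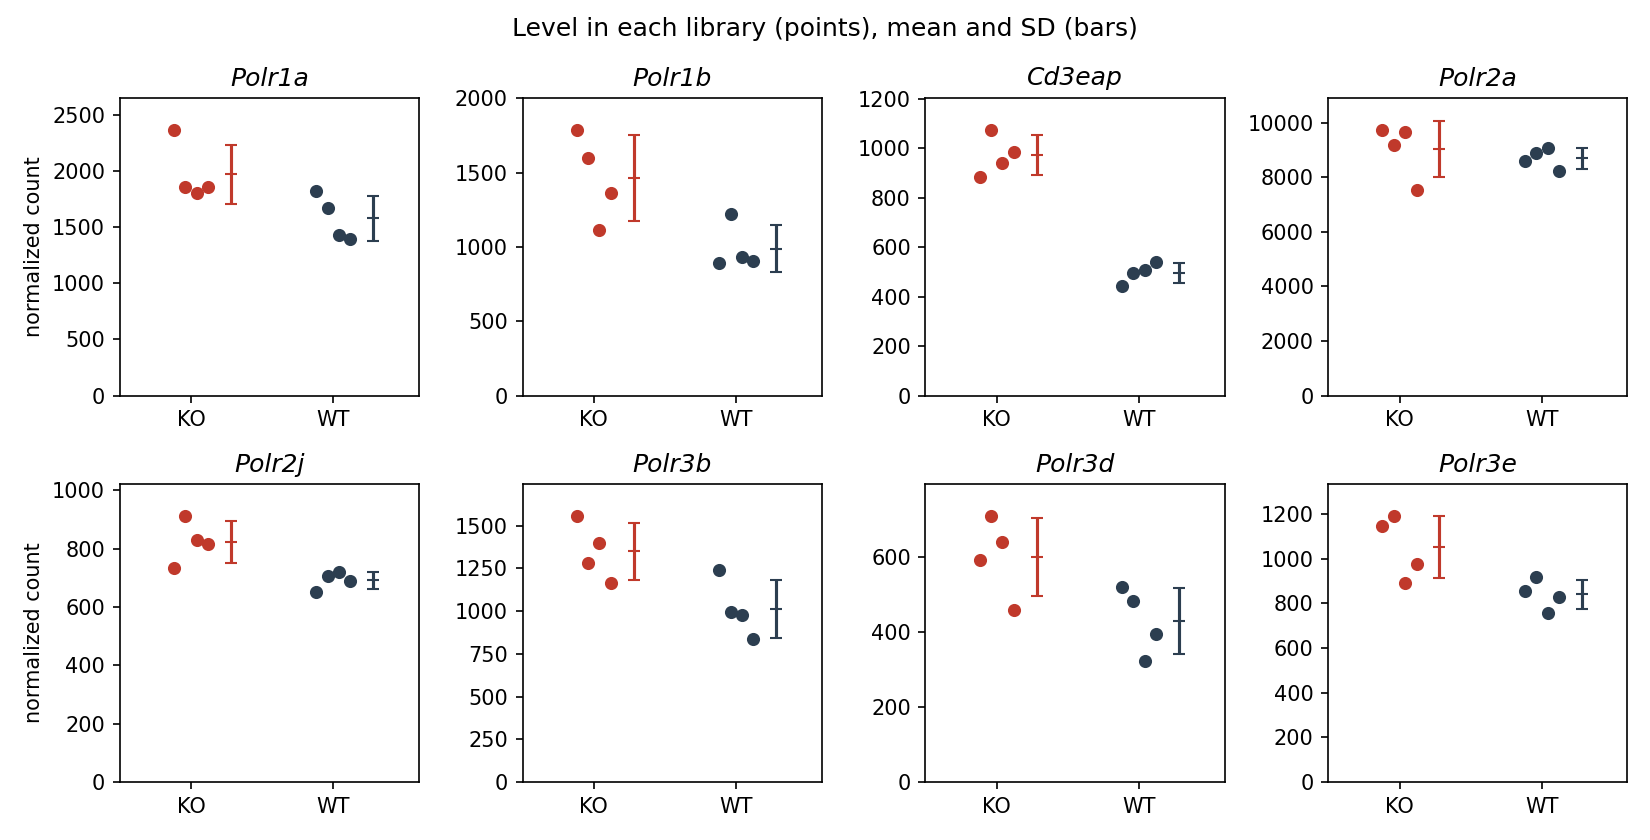
Normalized count in each KO library (red, left) and WT library (dark, right) for 8 subunit genes, with the mean and SD of each group as a bar beside the points. Cd3eap and Polr2j separate the groups completely, Polr1a, Polr1b, Polr3b, Polr3d and Polr3e each have KO and WT values that overlap, and Polr2a overlaps across most of its range.

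The promoters of Polr1b and Cd3eap are shown because these were the subunit genes past the threshold, and that of Polr3e because it holds a sequence that its own polymerase reads. The windows run from 250 bases before to 50 bases after the start, from RefSeq on GRCm38.p6, at chr2:129100746-129101045 (plus strand), chr7:19359434-19359733 (minus strand) and chr7:120917528-120917827 (plus strand). Capitals mark, on either strand, the E-box CACGTG that Myc and related factors bind, the ETS motif CCGGAAG, the FOXO motif GTAAACA, and the tRNA promoter element known as the B box, whose letters are the first run of capitals in the Polr3e line.
Polr1b: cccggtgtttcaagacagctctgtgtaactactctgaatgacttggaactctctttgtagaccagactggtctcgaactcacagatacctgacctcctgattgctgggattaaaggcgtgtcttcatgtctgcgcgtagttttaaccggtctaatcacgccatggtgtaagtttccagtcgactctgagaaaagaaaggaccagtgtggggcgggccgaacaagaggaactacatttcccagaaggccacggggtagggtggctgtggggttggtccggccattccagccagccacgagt
Cd3eap: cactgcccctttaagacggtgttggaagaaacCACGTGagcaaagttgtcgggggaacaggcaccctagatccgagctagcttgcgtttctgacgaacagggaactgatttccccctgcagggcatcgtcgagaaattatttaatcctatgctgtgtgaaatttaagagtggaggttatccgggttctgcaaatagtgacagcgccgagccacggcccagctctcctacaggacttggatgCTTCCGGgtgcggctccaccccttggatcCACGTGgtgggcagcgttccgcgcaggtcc
Polr3e: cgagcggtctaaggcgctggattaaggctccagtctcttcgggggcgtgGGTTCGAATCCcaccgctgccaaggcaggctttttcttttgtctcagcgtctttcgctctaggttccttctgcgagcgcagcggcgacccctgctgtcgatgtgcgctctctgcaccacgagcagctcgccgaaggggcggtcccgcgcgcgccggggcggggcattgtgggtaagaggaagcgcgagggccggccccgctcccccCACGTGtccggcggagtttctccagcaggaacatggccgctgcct
Polr1b had none of these motifs in its window. Cd3eap had an E-box at base -218 and another at base 21, counted from the start, and an ETS motif at base -9, read on the other strand. In Polr3e an E-box began at base 6 and a B box at base -201. RefSeq places a tRNA gene, n-TLaag4, at bases 120917517 to 120917598 of chromosome 7, and 71 of its 82 bases lie in this window. Of the 28 members, 22 had a promoter in the RefSeq table. An E-box was present for 4 of them (Polr2h, Polr3c, Polr3e and Polr3gl) and in 7.15% of all 32851 promoters. The ETS motif was present for 7 of the 22 (Polr1c, Polr1e, Polr2c, Polr2f, Polr2j, Polr3b and Polr3g) and in 8.86% of all promoters. The FOXO motif was present for 0 of the 22 and in 3.65% of all promoters, and 7 promoters in all held the B box.

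No gene under the Polr2 symbols passed the threshold. Polr2a encodes RPB1, the largest subunit, whose long repeated tail carries the phosphorylation marks of the transcription cycle (ENSMUSG00000005198, chromosome 11, 69733997 to 69758637, minus strand). It had 9730.5, 9192.6, 9636.1 and 7538.9 normalized counts in KO libraries 1 to 4, against 8574.4, 8879.4, 9069.8 and 8209.7 in WT libraries 1 to 4. KO library 4 was the lowest of all and the other KO libraries were the highest. Its log2 change of 0.05 ± 0.10 (SE, limma adjusted p = 0.827) had a 95% interval of -0.16 to 0.26. Polr2b, for RPB2, its partner in the active site, was at 1832.2 to 2458.7 in KO libraries and 1854.8 to 2172.3 in WT libraries, with a log2 change of 0.04 (95% interval of -0.18 to 0.27). Polr2c and Polr2j encode RPB3 and RPB11, the pair that takes the place of the Polr1c and Polr1d products in polymerase II. Polr2j had 734.6, 911.7, 830.8 and 816.7 normalized counts in KO libraries 1 to 4, against 651.6, 706.7, 719.9 and 687.7 in WT libraries 1 to 4, with no overlap between the groups. Its log2 change of 0.25 ± 0.11 (SE, limma adjusted p = 0.196) was nevertheless not past the threshold, and with the macrophage covariate it was at 0.13 (adjusted p = 0.748). For Polr2j, 15.9% of exon bases are shared with Lrwd1 on the other strand (Lrwd1 log2 change 0.06). Polr2c had a log2 change of 0.04 (95% interval of -0.21 to 0.29), with 18.1% of its exon bases shared with Dok4, a gene of lower level.

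The stalk of polymerase II, which contacts the emerging RNA, is made of RPB4 and RPB7. Polr2d, for RPB4, was at 550.4 to 625.7 in KO libraries and 557.6 to 635.0 in WT libraries (log2 change -0.02, 95% interval of -0.26 to 0.23). Polr2g, for RPB7, was at 1189.0 to 1718.2 in KO libraries and 1179.2 to 1449.8 in WT libraries (log2 change 0.07, 95% interval of -0.19 to 0.32). Polr2i encodes RPB9, which acts in start site choice and proofreading. Its log2 change was -0.03 (95% interval of -0.43 to 0.37), and 26.8% of its exon bases are shared with Tbcb on the other strand. Tbcb had a log2 change of -0.33 (limma adjusted p = 0.151). Its mean was 818.0 normalized counts, against 301.0 for Polr2i. How far Tbcb reads enter the Polr2i value was not tested. Polr2m encodes Gdown1, which binds polymerase II and is not part of its core. It had the highest level per kilobase of exon among the 28 genes, with 3658.1, 3882.4, 3452.3 and 3602.2 normalized counts in KO libraries 1 to 4, against 3566.8, 3626.2, 3947.6 and 3392.6 in WT libraries 1 to 4. The groups lay over each other, and the log2 change of 0.01 had a 95% interval of -0.18 to 0.19, the narrowest of the 28.

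Polr2e, Polr2f, Polr2h, Polr2k and Polr2l encode RPB5, RPB6, RPB8, RPB12 and RPB10, the subunits found in all of polymerases I, II and III. None of the 5 passed the threshold, and their median log2 change was 0.14. Polr2h had 471.1, 706.8, 595.0 and 579.5 normalized counts in KO libraries 1 to 4, against 473.5, 513.9, 449.3 and 469.0 in WT libraries 1 to 4. Its KO libraries 2, 3 and 4 were above every WT library and KO library 1 was within the WT range, a log2 change of 0.29 ± 0.14 (SE, limma adjusted p = 0.234). With the macrophage covariate it was at 0.09 (adjusted p = 0.882), and without the 3 libraries at 0.17 (adjusted p = 0.744). Polr2e was at 1862.1 to 2555.3 in KO libraries and 1978.4 to 2084.9 in WT libraries, a log2 change of 0.15 (95% interval of -0.08 to 0.37). Polr2l and Polr2f had log2 changes of 0.14 (95% interval of -0.29 to 0.56) and -0.10 (95% interval of -0.40 to 0.20). Polr2k had 227.2, 464.6, 324.5 and 299.5 normalized counts in KO libraries 1 to 4, against 278.4, 321.0, 514.6 and 399.6 in WT libraries 1 to 4. The groups overlapped, and the log2 change of -0.21 had the widest interval of the 28 (95% interval of -0.69 to 0.27). It was -0.50 with the macrophage covariate, -0.56 without the 3 libraries, and between -0.39 and -0.05 with 1 library left out, the value nearest 0 being that without KO library 1. The pseudogene Polr2k-ps was listed at 1.86 normalized counts or less in KO libraries and at 7.90 or less in WT libraries.

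Of the 10 genes under the Polr3 symbols, none passed the threshold. Polr3b encodes RPC2, the second largest subunit (ENSMUSG00000034453, chromosome 10, 84622292 to 84727178, plus strand). It had 1555.8, 1279.9, 1396.6 and 1165.7 normalized counts in KO libraries 1 to 4, against 1242.3, 997.5, 974.9 and 834.3 in WT libraries 1 to 4. KO libraries 1, 2 and 3 lay above every WT library, and KO library 4 lay below WT library 1. The log2 change of 0.42 ± 0.13 (SE, limma adjusted p = 0.0558) fell just short in limma and in edgeR (adjusted p = 0.0624), and DESeq2 called it higher (adjusted p = 0.0309). It was also past the threshold without KO library 4 (0.49, adjusted p = 0.0406) or WT library 1 (0.52, adjusted p = 0.0164), with a filter of 50 (adjusted p = 0.047) and with a pseudocount of 5 (adjusted p = 0.0491). With the macrophage covariate it was at 0.54 (adjusted p = 0.12). Polr3a, for the largest subunit RPC1, had 973.0, 687.1, 761.2 and 722.0 normalized counts in KO libraries 1 to 4, against 926.6, 730.7, 663.8 and 776.4 in WT libraries 1 to 4. KO library 1 and WT library 1 were the highest of their groups, and the log2 change was 0.02 (95% interval of -0.28 to 0.32).

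Polr3d and Polr3e encode RPC4 and RPC5, a pair related to the initiation factor TFIIF that acts in initiation and termination. Polr3d had 594.0, 710.1, 639.9 and 460.0 normalized counts in KO libraries 1 to 4, against 520.8, 482.6, 323.1 and 396.1 in WT libraries 1 to 4. KO libraries 1, 2 and 3 were above every WT library and KO library 4 was within the WT range, giving a log2 change of 0.49 ± 0.17 (SE, limma adjusted p = 0.0994). It passed without KO library 4 (0.61, adjusted p = 0.043), and with the macrophage covariate it was at 0.32 (adjusted p = 0.579). Polr3e had 1147.1, 1190.0, 892.5 and 978.0 normalized counts in KO libraries 1 to 4, against 853.4, 916.2, 758.6 and 829.9 in WT libraries 1 to 4. KO library 3 lay below WT library 2 and the other KO libraries lay above all WT libraries, a log2 change of 0.32 ± 0.12 (SE, limma adjusted p = 0.117). With the macrophage covariate Polr3e was at 0.27 (adjusted p = 0.492). Crcp, which encodes the stalk subunit RPC9 under a symbol of another form, was at 611.9 to 800.5 in KO libraries and 638.1 to 725.4 in WT libraries (log2 change 0.02, adjusted p = 0.959).

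The subcomplex that opens promoters for polymerase III consists of RPC3, RPC6 and RPC7, the last in alternative forms encoded by Polr3g and Polr3gl. Their genes had log2 changes of -0.03 for Polr3c (95% interval of -0.23 to 0.18), -0.13 for Polr3f (95% interval of -0.39 to 0.14), -0.01 for Polr3g (95% interval of -0.47 to 0.46) and -0.07 for Polr3gl (95% interval of -0.45 to 0.30). Polr3c, the highest of the Polr3 genes per kilobase, had 1556.7, 1568.1, 1605.5 and 1704.2 normalized counts in KO libraries 1 to 4, against 1760.9, 1464.5, 1725.2 and 1614.2 in WT libraries 1 to 4, with the groups overlapping throughout. The form encoded by Polr3g is known from embryonic stem cells and tumors, and that encoded by Polr3gl from differentiated tissue. Polr3g was the lowest of the 28 genes per kilobase, with 133.1, 166.6, 133.6 and 198.0 normalized counts in KO libraries 1 to 4, against 133.0, 158.4, 167.6 and 168.6 in WT libraries 1 to 4. Per kilobase of exon, Polr3gl exceeded Polr3g by a factor of 8.44 ± 0.369 in KO libraries and 8.92 ± 1.43 in WT libraries (SD, n = 4 each), and the groups overlapped. Polr3k, for the cleavage subunit RPC10, was at 603.3 to 863.6 in KO libraries and 687.7 to 790.8 in WT libraries (log2 change -0.03, 95% interval of -0.30 to 0.25).

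Levels per kilobase of merged exons set the subunit genes apart far more than the groups did. As means over the 8 libraries, Polr2m, Polr2a and Polr2g stood at 1502, 1253 and 1122 normalized counts per kilobase, and Polr3f and Polr3g at 88.5 and 40.0. The genes of the largest subunits were at 149 for Polr1a, 1253 for Polr2a and 134 for Polr3a. Within a library Polr2a exceeded Polr1a by a factor of 7.76 ± 1.06 in KO libraries and 9.35 ± 1.18 in WT libraries (SD, n = 4 each), and the values overlapped. It exceeded Polr3a by a factor of 9.58 ± 1.36 in KO libraries and 9.41 ± 1.58 in WT libraries. Among the Polr1 genes, Polr1d and Polr1c, whose products also enter polymerase III, were the highest at 793 and 580 per kilobase. Polr1d itself had 2110.7, 2549.9, 2399.2 and 2660.9 normalized counts in KO libraries 1 to 4, against 2057.3, 2375.4, 2826.3 and 2330.8 in WT libraries 1 to 4. Polr2c was the lowest of the Polr2 genes at 183 per kilobase, with 848.2, 1059.6, 1023.9 and 963.5 normalized counts in KO libraries 1 to 4, against 813.9, 1046.5, 942.7 and 993.3 in WT libraries 1 to 4, and the groups overlapped. These lengths count every annotated exon once, so genes with long alternative exons are understated.

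**Figure D3:**
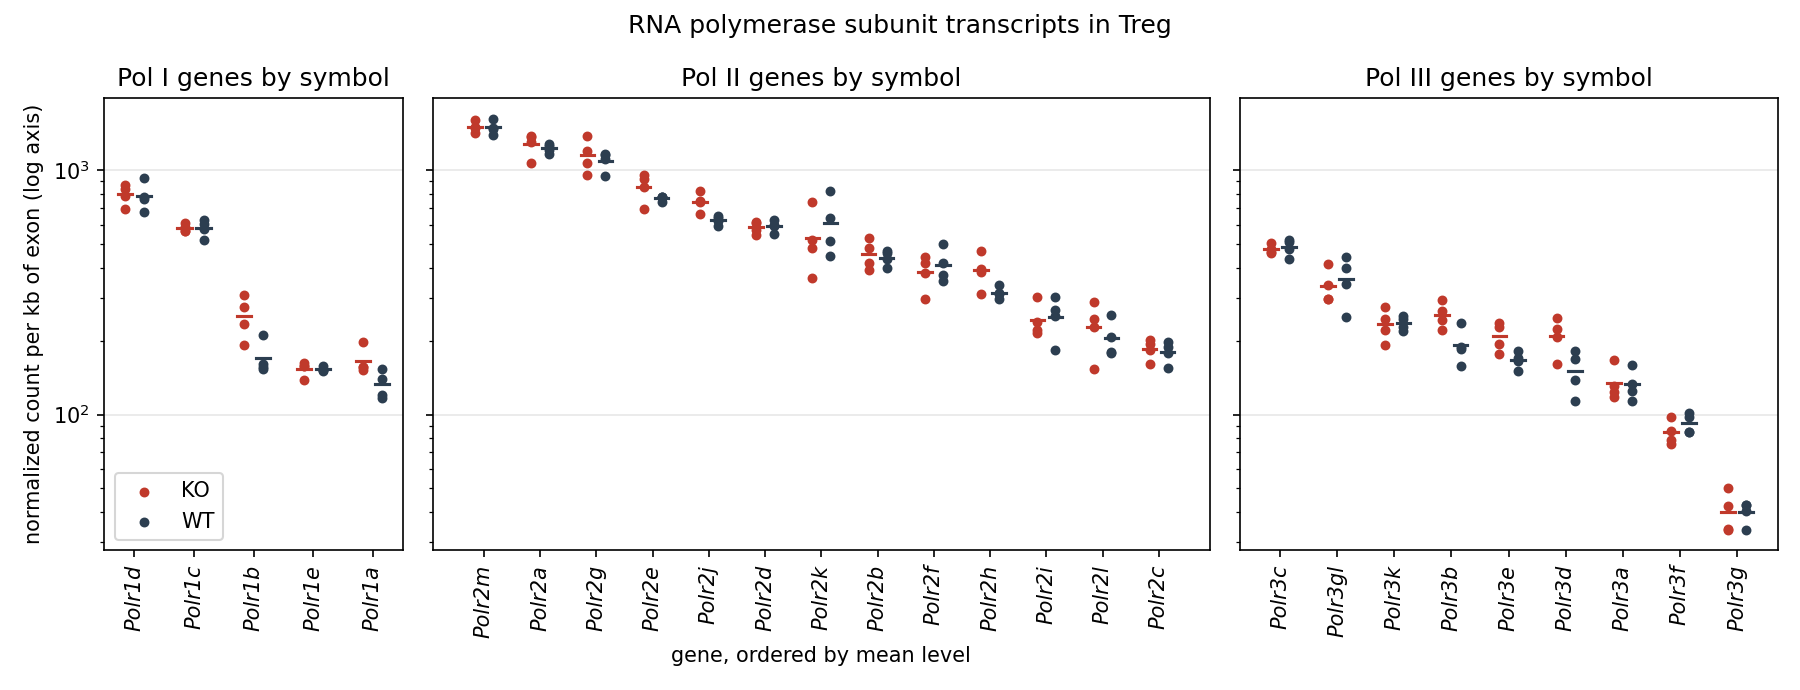
Normalized count per kilobase of merged exons (log axis) for 27 of the 28 subunit genes in each KO library (red, left of each pair) and WT library (dark, right), with group means as short lines, ordered by mean level within each polymerase. Polr2m is highest at 1502 and Polr3g lowest at 40.0, and for most genes the points of the groups lie over each other.

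Factors that work with the polymerases were examined from lists written for this purpose with earlier results of these data known. For comparison, 4.41% of all genes tested were higher and 5.06% lower, and whether a list differed from these shares was not tested. The polymerase I list held Ubtf, Rrn3, Taf1a, Taf1b, Taf1c, Taf1d and the termination factor Ttf1. Among these 7 factors, 1 was higher, 0 lower and 6 not past the threshold, with a median log2 change of 0.00. The gene that rose was Taf1d, a subunit of the selectivity factor SL1, with 1659.1, 1409.2, 1461.8 and 2075.4 normalized counts in KO libraries 1 to 4, against 1335.9, 804.7, 1015.4 and 1304.2 in WT libraries 1 to 4 (log2 change 0.58 ± 0.16 SE, limma adjusted p = 0.0343). It lost the call without KO library 1, 3 or 4 or WT library 2 or 3 (limma adjusted p = 0.0528, 0.0518, 0.0985, 0.102 and 0.0884) and with quantile normalization (adjusted p = 0.0553) or omission of the 3 libraries with most macrophage marker signal (adjusted p = 0.0767). With the macrophage covariate it kept the call at 0.99 (adjusted p = 0.00277). Small nucleolar RNA genes lie on the same strand within its exons, so their reads cannot be told from its own. The rRNA promoter factor gene Ubtf was at a log2 change of -0.01 (adjusted p = 0.962), and Rrn3, which brings polymerase I to the promoter, at 0.22 (adjusted p = 0.259). Among 15 initiation factors of polymerase III, 0 were past the threshold and the median was 0.01. Gtf3c1 of TFIIIC and Bdp1 of TFIIIB, the list's genes with the most normalized counts, had log2 changes of 0.10 and 0.27 (adjusted p = 0.677 and 0.273). Maf1 encodes the repressor of polymerase III that mTOR inhibits by phosphorylation. It had 4008.2, 4161.8, 4064.2 and 4410.3 normalized counts in KO libraries 1 to 4, against 3433.8, 3658.5, 3460.6 and 3298.6 in WT libraries 1 to 4, with every KO library above every WT library. Its log2 change of 0.26 ± 0.08 (SE, limma adjusted p = 0.0579) was short of the threshold in limma, and DESeq2 called it higher (0.27, adjusted p = 0.0131). Maf1 also passed with a filter of 50 (adjusted p = 0.047). It did not pass in edgeR (adjusted p = 0.0608), with the macrophage covariate (0.24, adjusted p = 0.347) or with any 1 library left out.

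For polymerase II, 18 initiation factors had 0 past the threshold and a median log2 change of 0.06. Gtf2f1 of TFIIF and Ercc3, the TFIIH translocase, were at 0.01 and 0.17 (adjusted p = 0.979 and 0.415). Among 22 elongation factors, 0 were higher and 1 lower, with a median of 0.06, where 5.06% of all genes tested were lower. The gene that fell was Ell2, which encodes a subunit of the super elongation complex, with 68.0, 81.1, 86.5 and 46.9 normalized counts in KO libraries 1 to 4, against 172.5, 165.7, 153.7 and 156.3 in WT libraries 1 to 4 (log2 change -1.22 ± 0.26 SE, limma adjusted p = 0.00754). The groups were far apart, and the call held under all 19 alternative settings (adjusted p between 0.000172 and 0.0408). Ell2 was low, at 7.18 normalized counts per kilobase in KO libraries and 16.5 in WT libraries. A small nucleolar RNA gene on the same strand shares 130 of its exon bases, and an antisense gene shares 94. Among 10 assembly factors of the polymerases, 0 were past the threshold and 8 had positive values, with a median of 0.17. Positive values were fitted for 49.1% of all genes tested. Uri1 and Ruvbl2, which belong to the R2TP chaperone complex and its partners, were at 0.20 and 0.11 (adjusted p = 0.23 and 0.638). Among 4 genes of mitochondrial transcription, Tefm, the elongation factor of the mitochondrial polymerase, rose, with 263.5, 208.2, 282.9 and 221.0 normalized counts in KO libraries 1 to 4, against 168.0, 107.4, 130.7 and 123.8 in WT libraries 1 to 4 (log2 change 0.88 ± 0.21 SE, limma adjusted p = 0.0146). Tefm passed under 17 of the 19 alternative settings, among them the macrophage covariate (1.13, adjusted p = 0.0400). It lost the call at 0.81 without KO library 3 (adjusted p = 0.0543). It also lost the call at 0.79 without the 3 libraries highest in macrophage markers (adjusted p = 0.193). Polrmt, the mitochondrial polymerase itself, was at 0.18 (adjusted p = 0.393).

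**Figure D4:**
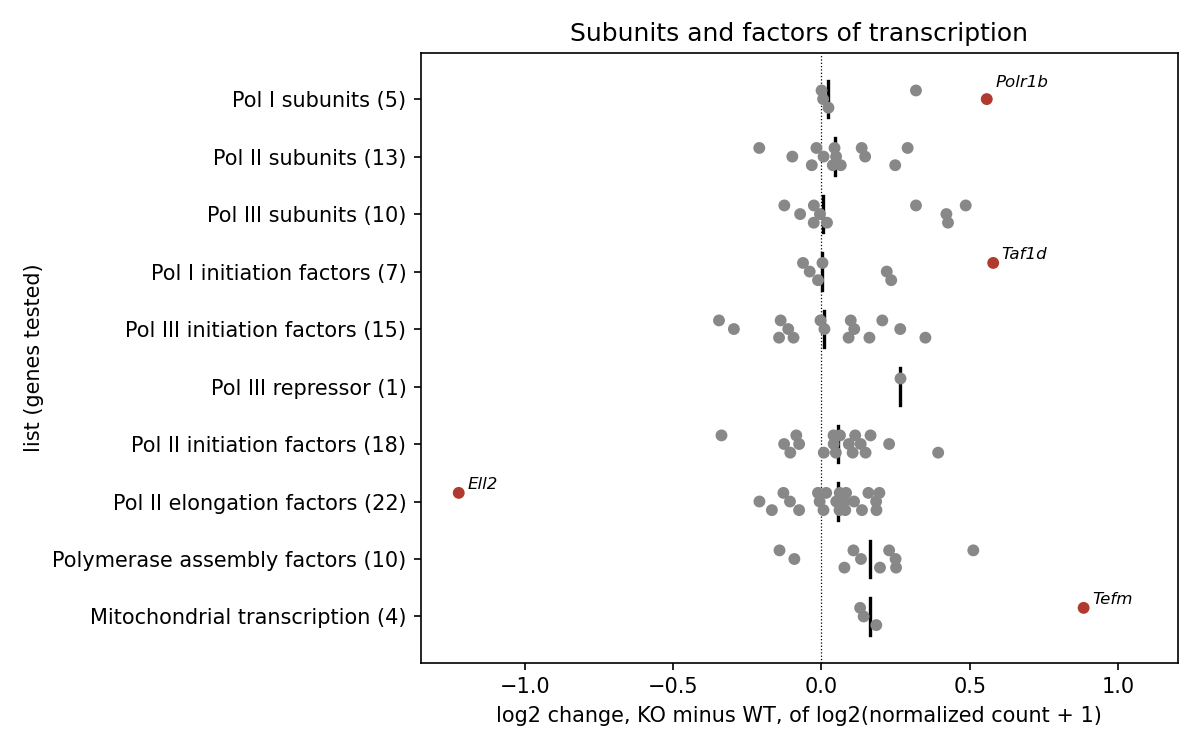
Log2 change (KO minus WT, x axis) of each tested gene in the subunit groups and in the lists of factors, with the number of genes in brackets and the median as a black line. Red points passed the threshold, and they are Polr1b, Taf1d, Ell2 and Tefm. The row labelled as polymerase I initiation factors includes the termination factor gene Ttf1.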

How the data were processed

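RNA of 4 KO and 4 WT Treg libraries was measured. The deposited values are a signal, gene counts divided by DESeq2 size factors. The authors used Trimmomatic 0.39, STAR 2.7.6a, SAMtools 1.11, featureCounts of Subread 2.0.1, DESeq2 1.21 and GRCm38, per the submitters' processing notes. The strand setting and the annotation release are not given in the sources used here. Dividing by the worth of 1 read gave whole numbers for 100% of entries (tolerance 0.001), so reads were recovered for edgeR 4.0.16 and DESeq2 1.42.0, run as alternatives, where edgeR called 599 genes higher and 655 lower. The tests reported used limma 3.58.1 in R 4.3.3, with a trended prior, on log2(normalized count + 1). They covered the 13847 of 19826 genes with a normalized count of 10 or more in at least 4 libraries. Tests were two-sided, p-values were adjusted after Benjamini and Hochberg over these genes, and 0.05 was the threshold. The procedure was tested on simulated data. Exon lengths and overlaps came from GENCODE M21, and promoters from RefSeq. Genes named in full were those past the threshold and the highest and lowest per kilobase of each polymerase, and from each other list those past it or else the 2 with the highest mean. Others with values per library (Polr2h, Polr2j, Polr2k, Polr3a, Polr3b, Polr3d, Polr3e and Maf1), and Twistnb, Ubtf, Rrn3, Polrmt and Myc, were chosen after their values were seen, as were the motifs. Members and lists were chosen with earlier results of these data known. The values of 1 member are not reported here.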

Additional observations from a re-analysis of the deposited data

Results flagged for a closer look

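In 6 of 84 groups examined (42 genes in KO and WT libraries), 1 library stood apart from the other 3, with a gap to its nearest neighbour above Dixon's 95% critical share of the group's range. Chance flags about 1 in 20 groups. Polr1a was highest in KO library 1 at 2363.95 normalized counts, where the other KO libraries had 1806.43 to 1851.9. Bdp1 was highest in the same library at 2313.67, against 1486.61 to 1618.93 in the others. Polr1b was highest among WT libraries in WT library 2 at 1225.76, where the other WT libraries had 892.833 to 932.575. WT library 1 was lowest of its group for Polr2e at 1978.44, for Crcp at 638.06 and for Znrd1 at 409.215.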

How the results depend on the processing

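Over 19 alternative settings, 516 of 532 results for single subunit genes kept their side of the threshold, 10 passed it newly and 6 lost it, all 6 of them Polr1b. No called subunit gene changed direction. The count of subunit genes that were higher was 1 in the reported fit, 2 with DESeq2 and 0 with the macrophage covariate. The shares of all genes that were higher were 4.41%, 6.14% and 1.6% in the same order. Leaving out 1 library gave 0 to 3 subunit genes. Polr1b and Polr3b were higher with a filter of 50 and with a pseudocount of 5, where the shares of all genes are not given. Over all genes, the covariate gave 222 higher and 295 lower, and omission of the 3 libraries highest in macrophage markers, chosen after seeing the data, gave 167 higher and 305 lower. With 1 library left out there were 389 to 588 higher and 495 to 724 lower. The median log2 change of Polr3 genes was 0.16 with the covariate, and that of Polr1 genes was -0.0078 to 0.11 with 1 library left out. The causes were not tested. Equal replicate numbers were not shown to pair libraries (correlations of deviations 0.217, 0.0921, 0.0481 and 0.113). With the replicate number as a block, 5 subunit genes were higher (Polr1a, Polr1b, Polr3b, Polr3d and Polr3e), and over all genes 1243 were higher and 1292 lower. Outside the symbol rule, Maf1 and Twistnb also passed newly with this block (limma adjusted p = 0.0123 and 0.0203). KO libraries 1, 3 and 4 correlated best with WT libraries 1, 3 and 4, and KO library 2 with WT library 3. Genes of low level, such as Polr3g and Polr2k, had the widest intervals.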

Other observations

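Several subunit genes have a neighbour on the other strand whose start lies within 1000 bases. Polr2b and Noa1, a gene for a mitochondrial GTPase, start 63 bases apart. Noa1 rose, with a log2 change of 0.56 ± 0.14 (SE, limma adjusted p = 0.0196), where Polr2b was at 0.04 (adjusted p = 0.861), and the difference between them was not tested. Polr3a and the ribosomal protein gene Rps24 start 67 bases apart, with log2 changes of 0.02 for Polr3a and 0.55 for Rps24 (adjusted p = 0.956 and 0.102). Polr1c and Yipf3 start 26 bases apart, with log2 changes of 0.01 and 0.18, neither past the threshold. These genes were named after their values were seen.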
